A study of Capra hircus with 6 samples.

Results

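Zinc finger genes of the ZNF and ZBTB families were the hosts of 239 of the 25500 circular RNA (circRNA) entries recorded in the longissimus dorsi muscle of the goat. They were chosen by name: every host gene called ZNF or ZBTB with a number was taken, except ZNF609. Entries that carry a gene number in place of a name were added when they lay on the same chromosome and strand within the span of such a gene, and the RefSeq gene table gave the same gene for all 44 of them. This gave 81 host genes, 67 ZNF and 14 ZBTB, of 6430 host genes in all. Entries whose ends differ by 1 base were added together, which left 211 circRNAs of these genes among 23916. The animals were Haimen goats, with 3 libraries from newborn kids of day 1 (kid) and 3 from fetuses at day 75 of gestation (fetus). No treatment or genetic change is named for either stage. The labels list 6 separate samples without saying that each came from its own animal, so the p-values rest on spread among libraries, which may be technical. Whole muscle RNA was sequenced after treatment with RNase R, which digests linear RNA, so the values say nothing of the linear transcripts. The deposited tables hold no circRNA sequence and none is shown.

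A circRNA is made when the spliceosome joins the end of a downstream exon back to the start of an upstream one, and it is counted by the reads that cross this back-splice junction. ZNF genes encode proteins with arrays of C2H2 zinc fingers, short folds held by a zinc ion that read DNA and sometimes bind RNA. Many ZNF proteins also carry a KRAB domain, which recruits the corepressor TRIM28 and the histone methyltransferase SETDB1 to silence chromatin, often at transposons. ZBTB proteins pair zinc fingers with a BTB domain, through which they dimerise and bind corepressors with histone deacetylases, and in some cases the ubiquitin ligase scaffold CUL3. Members of both families act as transcription factors in lineage choice and differentiation.

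Back-splice reads numbered 42695 to 77111 in the kid libraries and 33222 to 56467 in the fetus libraries, and 34123876 to 52035202 reads per library were valid. These were 84% to 87.9% of the raw reads in kid, against 70.7%, 69.1% and 87% in fetus 1, 2 and 3. Fetus 1 and 2 stood apart in this, and tests were repeated with fetus 3 alone against the kid libraries. Levels are given as CPM, the reads of a gene in 1e6 back-splice reads of its library, scaled with TMM factors. A back-splice junction is a single point, so its reads do not grow with the length of the circle. Whether circles differ in recovery in other ways was not tested, so a rank of genes by CPM is a rank of junction reads. A floor of 3 reads corresponds to 41.7 to 83.4 CPM in single libraries. Of 12 muscle fibre markers 11 gave circRNAs, with summed levels of 20490.8 to 25036.0 CPM in kid and 11617.7 to 12226.5 CPM in fetus, and MYH3 was at 0. Endothelial markers summed to 125.0 to 245.5 CPM in kid and 112.0 to 277.9 CPM in fetus. Immune markers reached at most 86.64 CPM in kid and 16 CPM in fetus, with PTPRC, CD74, CSF1R and LYN at 0. Erythroid markers reached at most 125.0 CPM in kid and 83.38 CPM in fetus, with SLC4A1, ALAS2 and HBB at 0. Fat markers reached 27.02 CPM in kid and 0 in fetus, with PLIN1 and CIDEC at 0. In whole muscle, fewer cells of a type and less circRNA per cell cannot be told apart.

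Between the stages, circRNAs of 5 zinc finger host genes changed. ZBTB16 and ZNF215 rose in kid, and ZNF292, ZNF330 and ZNF536 fell. The test was edgeR's quasi-likelihood test on reads summed per host gene, with adjusted p (Benjamini-Hochberg) under 0.05. Only 23 of the 81 genes had at least 5 reads in at least 3 libraries and were tested. The 5 called genes are 21.7% of those tested, beside 19.3% of all 1755 host genes tested, so the share is near that of host genes in general. By direction, 2 of 23 rose, beside 11.9% of all host genes tested, and 3 fell, beside 7.41%. The 18 tested genes that were not called had log2 fold changes of kid over fetus from -1.80 to 1.16 and adjusted p of 0.115 to 0.962. Among them were 3 that passed an unadjusted p of 0.05, out of 8 tested members that did. The share of all host genes at that threshold is not given here, so these numbers say nothing of an excess. ZBTB16 passed the read filter through kid alone, and ZNF330 and ZNF536 through fetus alone. The median log2 fold change was -0.19 over the 23 genes and 0.05 over all tested host genes. Without TMM factors the medians were -0.46 and -0.21, so both moved by a like amount.

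**Figure D1:**
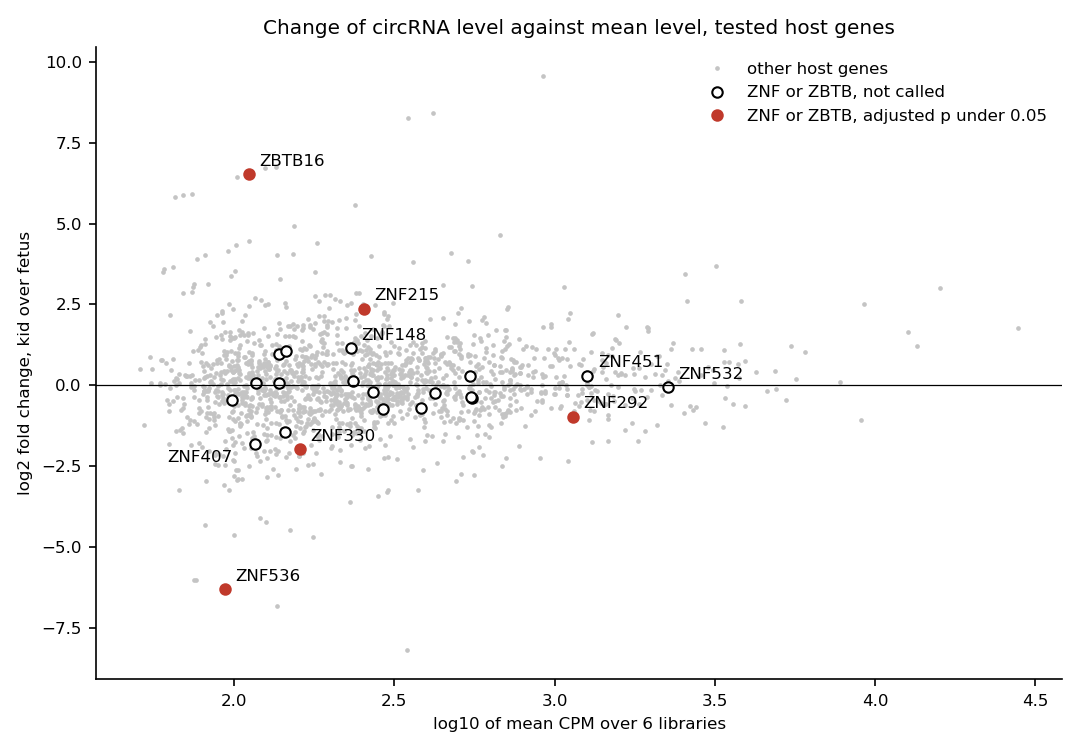
Each point is a host gene tested between the stages, with the log10 of its mean CPM over the 6 libraries on the x axis and its log2 fold change of kid over fetus on the y axis. Grey points are other host genes, open circles are ZNF or ZBTB genes that were not called, and filled circles are the 5 called genes: ZBTB16 and ZNF215 lie above 0, and ZNF292, ZNF330 and ZNF536 below it. The fitted heights of ZBTB16 and ZNF536, at 0 in a whole stage, depend on the prior count and are no measure of size.

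Most of these genes gave few circRNA reads. The 81 genes held 3456 reads in all, and 3 of them, ZNF532, ZNF451 and ZNF292, held 1481 reads or 42.9%. There were 8 genes with at least 100 reads and 13 with at least 50, against 41 with fewer than 10 and 19 with a single read. Reads came from both stages for 51 genes, from kid only for 12 and from fetus only for 18. Such a split at low counts does not show absence from a stage, and the split over all host genes is not given here. In each library 46 to 51 of the 81 genes had a read, except kid 2, where 42 did. When every library was thinned to 33222 reads, 40.85, 39.4 and 41.85 genes were detected in kid 1, 2 and 3, against 46.4, 51 and 41.5 in fetus 1, 2 and 3. The kid mean was 0.879 of the fetus mean, and the same ratio over all host genes was 0.943. Fetus 3 lay inside the kid range, so the stages overlapped.

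Over the entries chosen, the summed share of ZNF circRNAs was lower in kid and that of ZBTB circRNAs was higher. The 67 ZNF genes took 0.931%, 0.773% and 0.985% of back-splice reads in kid 1, 2 and 3, against 1.22%, 1.32% and 1.11% in fetus 1, 2 and 3. Every kid library was below every fetus library, with a ratio of means of 0.737. Scaled to valid reads in place of back-splice reads (reads in 1e6 valid reads), the ZNF ratio was 0.906 and the stages no longer separated: kid 1 and 3 had 13.8 and 14.1, above all 3 fetus libraries at 12.1 to 13.2, and kid 2 had 6.82. The 14 ZBTB genes took 0.0454%, 0.0960% and 0.0636% of back-splice reads in kid 1, 2 and 3, against 0.0356%, 0.0361% and 0.0390% in fetus 1, 2 and 3. Every kid library was above every fetus library, with a ratio of means of 1.85 on this scale and 2.07 when scaled to valid reads. Without ZBTB16 and ZBTB20, left out after their values were seen, the ZBTB ratio was 1.01 and the stages overlapped. Entries outside the choice by name and position are not in these sums. Of the same ZBTB genes, such entries had 16 reads in kid and 30 in fetus for ZBTB8A, and 2 and 8 for ZBTB25. For ZBTB7C they had 0 and 2, and for ZBTB20 4 and 0. The separation of the ZBTB shares is thus shown for the entries chosen only. These sums are descriptions with no test.

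**Figure D2:**
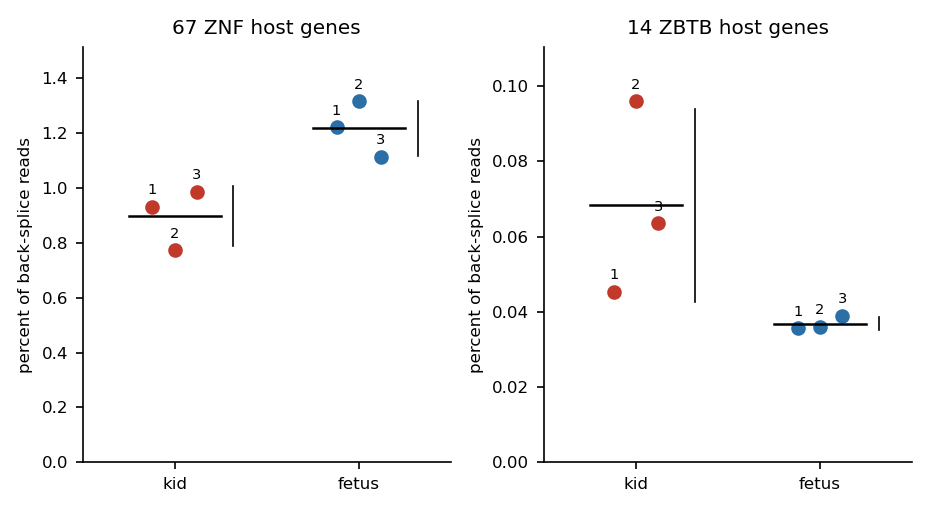
The percent of all back-splice reads that came from the 67 ZNF host genes (left panel) and the 14 ZBTB host genes (right panel) is shown for each library, numbered 1 to 3 within its stage, with the mean and SD of each stage. ZNF shares lie between 0.773% and 0.985% in kid and between 1.11% and 1.32% in fetus. ZBTB shares, over the entries chosen, are higher in every kid library.

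Among the BTB genes, ZBTB16, which encodes the transcription factor PLZF that maintains stem and progenitor cells in several lineages, was found in kid alone. It had 10, 11 and 16 reads in kid 1, 2 and 3, against 0, 0 and 0 in fetus 1, 2 and 3. The level was 222.4 ± 79.5 CPM in kid (SD, n = 3) and every fetus library was at 0. With 3 reads over all fetus libraries taken as the floor, ZBTB16 was at least 9.59-fold higher in kid (adjusted p = 0.00119), and at least 5.27-fold without fetus 3. The call held in all 6 fits that left out 1 library. Those fits kept the same read filter, which ZBTB16 passed through kid alone, so they are no independent support. On chromosome 15, from 57625636 to 57755127 on the minus strand (coordinates of the deposited tables, for which no source used here names a build), ZBTB16 gave 5 circRNAs. The most read spanned exons 3 to 5 with 13 reads, followed by exons 4 to 5 and exon 3 alone with 10 reads each. Exon 3 alone makes a circle of 1358 bases.

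ZBTB20, which encodes a repressor best known for silencing alpha-fetoprotein in mouse liver after birth, had too few reads for the test. It had 12, 4 and 8 reads in kid 1, 2 and 3, against 0, 1 and 0 in fetus 1, 2 and 3. Every kid library was above every fetus library. Pooled over libraries the CPM ratio of kid over fetus was 18.7, with an exact 95% interval for counting error of 3.04 to 768. Its circRNA, a circle of exon 5 alone with 1605 bases, held 96% of the reads. ZBTB46, a marker of classical dendritic cells, had 2 reads in kid and 8 in fetus, a CPM ratio of 0.194 with an interval of 0.0201 to 0.974.

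ZBTB25 was the other BTB gene tested. It had 3, 16 and 7 reads in kid 1, 2 and 3, against 4, 2 and 6 in fetus 1, 2 and 3, and the stages overlapped. The log2 fold change of 0.98 ± 0.78 (SE, adjusted p = 0.43) rested on kid 2, without which it was -0.30. ZBTB40 had 16 reads in kid and 7 in fetus. ZBTB24, which is mutated in the ICF syndrome of immunodeficiency and unstable centromeres, had 8 in kid and 7 in fetus. ZBTB44 had 5 in kid and 7 in fetus. The other 7 ZBTB genes had at most 3 reads each in the entries chosen. Outside the choice, a further entry of ZBTB8A had 16 reads in kid and 30 in fetus, and 1 of ZBTB25 had 2 and 8.

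ZNF215, a gene with SCAN and KRAB domains that is imprinted in human, was the KRAB-type gene that rose. It had 33, 13 and 32 reads in kid 1, 2 and 3, against 7, 1 and 3 in fetus 1, 2 and 3. The level was 423.9 ± 63.0 CPM in kid and 83.4 ± 79.4 CPM in fetus (SD, n = 3 each), a log2 fold change of 2.37 ± 0.55 (SE, adjusted p = 0.00431). No fetus library reached the lowest kid library. The log2 fold change was 3.34 without fetus 1, the fetus library with the most reads, and the call held in all 6 fits that left out a library and with fetus 3 alone (3.10, adjusted p = 0.042). ZNF215 lies on chromosome 15 from 36655955 to 36665327 on the plus strand. Its main circRNA, exons 3 to 4 with 222 bases, held 80.9% of the reads: 30, 9 and 26 in kid 1, 2 and 3, against 4, 0 and 3 in fetus 1, 2 and 3. Tested by itself it also rose, with a log2 fold change of 2.72 ± 0.64 (SE, adjusted p = 0.0132). That call was lost without fetus 3 (adjusted p = 0.06) or without kid 1 (adjusted p = 0.0557). The summed muscle fibre markers given above were also higher in each kid library than in any fetus library. Of the 10 markers tested 5 rose and 5 were not called. NEB alone had 6568.6 CPM in kid and 1062.0 CPM in fetus, while TRDN went the other way, with 113.3 and 145.3 CPM. The part of these markers in the rise of ZBTB16 and ZNF215 was not tested.

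The other KRAB-type genes with enough reads did not pass the test. ZNF248 had 30, 22 and 31 reads in kid 1, 2 and 3, against 26, 18 and 42 in fetus 1, 2 and 3, with overlapping levels and a log2 fold change of -0.36 ± 0.32 (SE, adjusted p = 0.476). ZNF169 had 26, 22 and 34 reads in kid 1, 2 and 3, against 24, 26 and 34 in fetus 1, 2 and 3. Its levels overlapped as well, with a log2 fold change of -0.38 ± 0.32 (SE, adjusted p = 0.453). The intervals leave room for moderate change: the fold of kid over fetus lay between 0.508 and 1.2 for ZNF248 and between 0.496 and 1.19 for ZNF169 (95% intervals). ZNF568, whose mouse counterpart Zfp568 silences a placental transcript of Igf2, had 19, 11 and 14 reads in kid 1, 2 and 3, against 10, 11 and 19 in fetus 1, 2 and 3. The stages overlapped and the log2 fold change was -0.19 ± 0.43 (SE, adjusted p = 0.805). Below the read filter, ZNF354C had 0, 2 and 10 reads in kid 1, 2 and 3 and 1, 0 and 0 in fetus 1, 2 and 3. Its CPM ratio was 9.33, with an exact 95% interval of 1.38 to 399, and 10 of its 12 kid reads came from kid 3.

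Among zinc finger genes without a KRAB or BTB domain, ZNF292 gave the most abundant circRNA that changed. ZNF292 encodes a large zinc finger transcription factor, and its human circRNA has been studied in endothelial cells. It had 58, 26 and 55 reads in kid 1, 2 and 3, against 47, 63 and 100 in fetus 1, 2 and 3. In CPM these are 805.8, 702.5 and 794.2 in kid, against 1170.4, 1751.0 and 1600.1 in fetus, so every kid library was below every fetus library. The mean was 767.5 ± 56.6 CPM in kid and 1507.2 ± 301.3 CPM in fetus (SD, n = 3 each), a log2 fold change of -0.96 ± 0.25 (SE, adjusted p = 0.0106). The call was lost without fetus 2 (-0.85, adjusted p = 0.0591), with fetus 3 alone (-1.05, adjusted p = 0.0923) and with valid reads as library size (-0.94, adjusted p = 0.121). ZNF292 lies on chromosome 9 from 49922234 to 49946935 on the minus strand. A single circRNA of exons 3 to 5, with 370 bases, held 347 reads or 99.4% of the gene. It fell with a log2 fold change of -0.98 ± 0.24 (SE, adjusted p = 0.0149), a call lost without fetus 2 (adjusted p = 0.0748) or without fetus 3 (adjusted p = 0.0655).

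ZNF536, a repressor of neuronal differentiation, was found in fetus alone. It had 0, 0 and 0 reads in kid 1, 2 and 3, against 9, 7 and 9 in fetus 1, 2 and 3, and passed the read filter through fetus alone. With 187.6 ± 40.5 CPM in fetus (SD, n = 3), ZNF536 was at least 10.7-fold lower in kid (floor of 3 reads over all kid libraries, adjusted p = 0.00231). The bound was 6.39-fold without kid 1 and 6.55-fold without kid 3, and the call was lost with fetus 3 alone (adjusted p = 0.155). Its main circRNA, exons 2 to 3 with 237 bases on chromosome 18 from 41985462 to 41995049 on the plus strand, held 23 of the 25 reads and fell too (adjusted p = 0.0104). That call was lost without fetus 2 (adjusted p = 0.0513). Of the nerve and Schwann cell markers, ERBB3, a receptor of Schwann cells, had 0, 1 and 0 reads in kid 1, 2 and 3, against 5, 2 and 16 in fetus 1, 2 and 3, and SOX10 was at 0. The part of such cells in the fall of ZNF536 was not tested.

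ZNF330, which encodes the nucleolar protein NOA36, had 4, 3 and 4 reads in kid 1, 2 and 3, against 6, 13 and 16 in fetus 1, 2 and 3. ZNF330 passed the read filter through fetus alone. The level was 64.8 ± 14.1 CPM in kid and 255.6 ± 106.0 CPM in fetus (SD, n = 3 each), with every kid library below every fetus library. The log2 fold change was -1.98 ± 0.62 (SE, adjusted p = 0.0298), the weakest of the 5 calls. It held in 2 of the 6 fits that left out a library, without fetus 1 and without kid 2, with adjusted p of 0.0311 to 0.124 over the 6. It was lost in 5 of 9 other fits: with fetus 3 alone (adjusted p = 0.147), no read filter (0.0926), DESeq2 (0.0696), valid reads as library size (0.0644) and a replicate block (0.0546). On chromosome 17, from 54432903 to 54444484 on the plus strand, a circRNA of exons 6 to 8 held 35 of 46 reads. Tested by itself, that circRNA did not pass (log2 fold change -1.50 ± 0.61 SE, adjusted p = 0.12). A shorter one of exons 6 to 7 had 0 reads in kid and 9 in fetus, all from fetus 2 and 3. Fibroblast and matrix markers, summed, were at 264.0 to 459.4 CPM in kid and 464.0 to 945.0 CPM in fetus, all 6 of them detected. POSTN, at 0 in kid, set the stages apart: without it the other 5 summed to 264.0 to 459.4 CPM in kid and 336.0 to 778.2 CPM in fetus, which overlap. COL1A1 went the other way, with 14 reads in kid and 5 in fetus, and FBN1 did not pass the test (log2 fold change -0.38, adjusted p = 0.646). Their part in the falls of ZNF292 and ZNF330 was not tested.

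**Figure D3:**
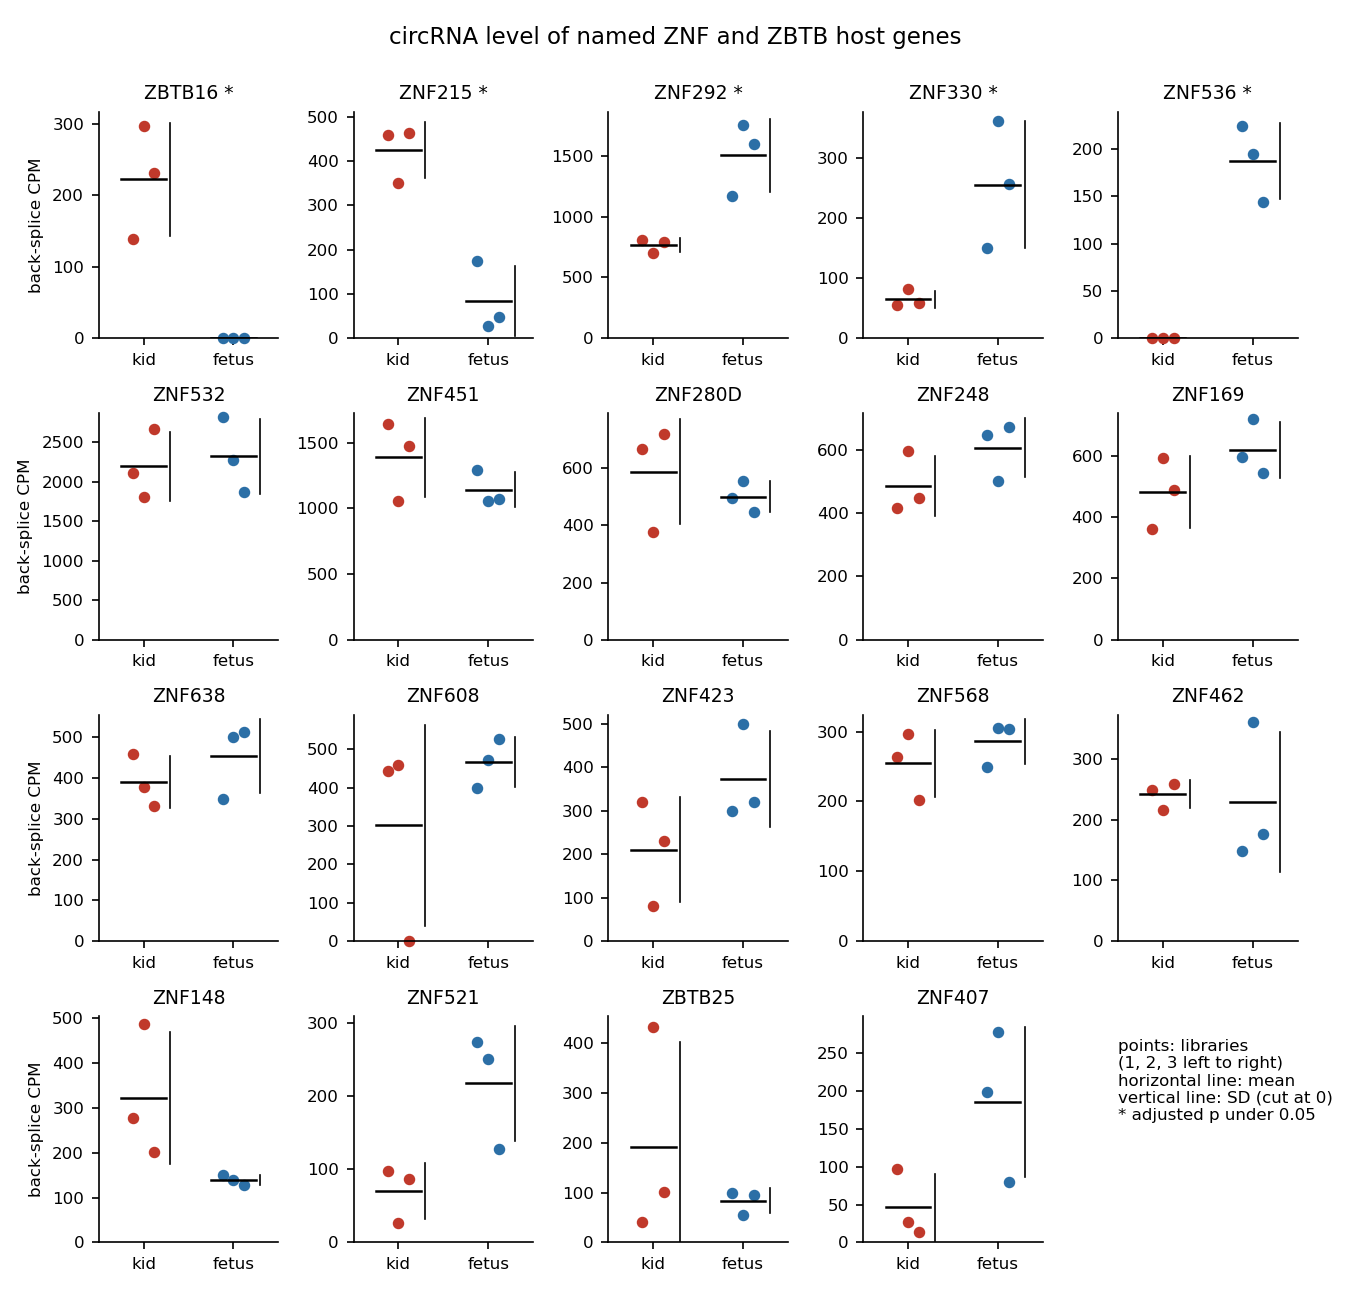
CPM of back-splice reads in each library (points) is plotted for 19 ZNF and ZBTB host genes, with kid left of fetus, the mean as a horizontal line and the SD as a vertical line cut at 0. The 5 genes marked with an asterisk passed the test: the kid points of ZBTB16 and ZNF215 lie above the fetus points, and those of ZNF292, ZNF330 and ZNF536 below them. ZNF608 shows 1 kid library at 0 beside 2 at 444.6 and 459.4 CPM.

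The gene with the highest circRNA level, ZNF532, was among those that did not pass the test. ZNF532 is fused to NUT in some carcinomas, and it ranked 51 among all host genes by mean CPM. It had 152, 67 and 185 reads in kid 1, 2 and 3, against 113, 82 and 117 in fetus 1, 2 and 3. The mean was 2197.9 ± 436.9 CPM in kid and 2321.7 ± 472.3 CPM in fetus (SD, n = 3 each). The log2 fold change was -0.06 ± 0.22 (SE, adjusted p = 0.886), its sign changed with the libraries used, and the fold of kid over fetus lay between 0.709 and 1.29 (95% interval). On chromosome 24, from 58188981 to 58203217 on the plus strand, a circRNA of exons 6 to 9 with 804 bases held 85.8% of the reads.

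ZNF451, which encodes a ligase that attaches SUMO chains, ranked 132 and gave 12 circRNAs. It had 118, 39 and 102 reads in kid 1, 2 and 3, against 52, 38 and 67 in fetus 1, 2 and 3. In CPM the stages overlapped, with 1388.7 ± 301.8 in kid and 1141.0 ± 133.5 in fetus (SD, n = 3 each) and a log2 fold change of 0.30 ± 0.25 (SE, adjusted p = 0.435). Its circRNAs of exons 4 to 7 (287 reads) and exons 6 to 9 (95 reads) share exons, so reads inside the circle do not tell them apart and only the junction reads do.

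ZNF280D and ZNF638 also spread their reads over many circRNAs. ZNF280D had 48, 14 and 50 reads in kid 1, 2 and 3, against 20, 20 and 28 in fetus 1, 2 and 3, with a log2 fold change of 0.28 ± 0.33 (SE, adjusted p = 0.602) and overlapping levels. ZNF638, a nucleic acid binding protein with a role in fat cell differentiation, had 33, 14 and 23 reads in kid 1, 2 and 3, against 14, 18 and 32 in fetus 1, 2 and 3. It gave 14 circRNAs, the most of any ZNF or ZBTB gene, and its log2 fold change was -0.22 ± 0.35 (SE, adjusted p = 0.724). ZNF462, which is mutated in a human craniofacial syndrome, had 18, 8 and 18 reads in kid 1, 2 and 3, against 6, 13 and 11 in fetus 1, 2 and 3. Its log2 fold change was 0.13 ± 0.48 (SE, adjusted p = 0.891) and turned to -0.12 without TMM factors.

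The related genes ZNF423 and ZNF521, which both bind the early B cell factor EBF1, gave the same form of circRNA. Mouse Zfp423 commits cells to the fat lineage and Zfp521 opposes it. The main circRNA of each joined exons 6 to 7 and had 248 bases, on chromosome 18 for ZNF423 and chromosome 24 for ZNF521. ZNF423 had 23, 3 and 16 reads in kid 1, 2 and 3, against 12, 18 and 20 in fetus 1, 2 and 3, with overlapping levels and a log2 fold change of -0.71 ± 0.46 (SE, adjusted p = 0.314). ZNF521 had 7, 1 and 6 reads in kid 1, 2 and 3, against 11, 9 and 8 in fetus 1, 2 and 3. In CPM all kid libraries of ZNF521 were below all fetus libraries, but the log2 fold change of -1.45 ± 0.63 (SE) did not pass the test (adjusted p = 0.115).

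ZNF608, the closest relative of the excluded ZNF609, gave 1 circRNA, a circle of exon 2 alone with 256 bases. It had 32, 17 and 0 reads in kid 1, 2 and 3, against 16, 17 and 33 in fetus 1, 2 and 3. The zero in kid 3 stands apart. Of 203 circRNAs with at least 15 reads in each of the other 5 libraries, this was the only one without a read in kid 3. By the same count, 1 of 218 had no read in fetus 1 and 1 of 243 had none in kid 2. The log2 fold change of ZNF608, -0.70 ± 0.71 (SE, adjusted p = 0.549), became -0.10 without kid 3.

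ZNF407 and ZNF148 had small p that did not survive adjustment. ZNF407 had 7, 1 and 1 reads in kid 1, 2 and 3, against 8, 10 and 5 in fetus 1, 2 and 3, with a log2 fold change of -1.80 ± 0.79 (SE, adjusted p = 0.115). Without kid 1 it was -3.11 (adjusted p = 0.0473). Its circRNA of exons 5 to 8 had 0 reads in kid and 15 in fetus, in all 3 fetus libraries. ZNF148, which encodes ZBP-89, a protein that binds GC-rich promoters, had 20, 18 and 14 reads in kid 1, 2 and 3, against 6, 5 and 8 in fetus 1, 2 and 3. Every kid library was above every fetus library in CPM, with a log2 fold change of 1.16 ± 0.52 (SE, adjusted p = 0.123).

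At the level of single circRNAs, 24 of the 211 circRNAs of these genes could be tested and 3 passed, beside 15.1% of all 1961 circRNAs tested. They were the main circRNAs of ZNF215, ZNF292 and ZNF536 described above. A change in the split among the circRNAs of 1 gene was tested with diffSpliceDGE for the 5 genes that had more than 1 circRNA past the read filter, ZNF280D, ZNF451, ZNF532, ZNF568 and ZNF638. None passed (adjusted p of 0.359 to 0.781, none with an unadjusted p under 0.05), beside 8.04% of all 373 host genes so tested.

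**Figure D4:**
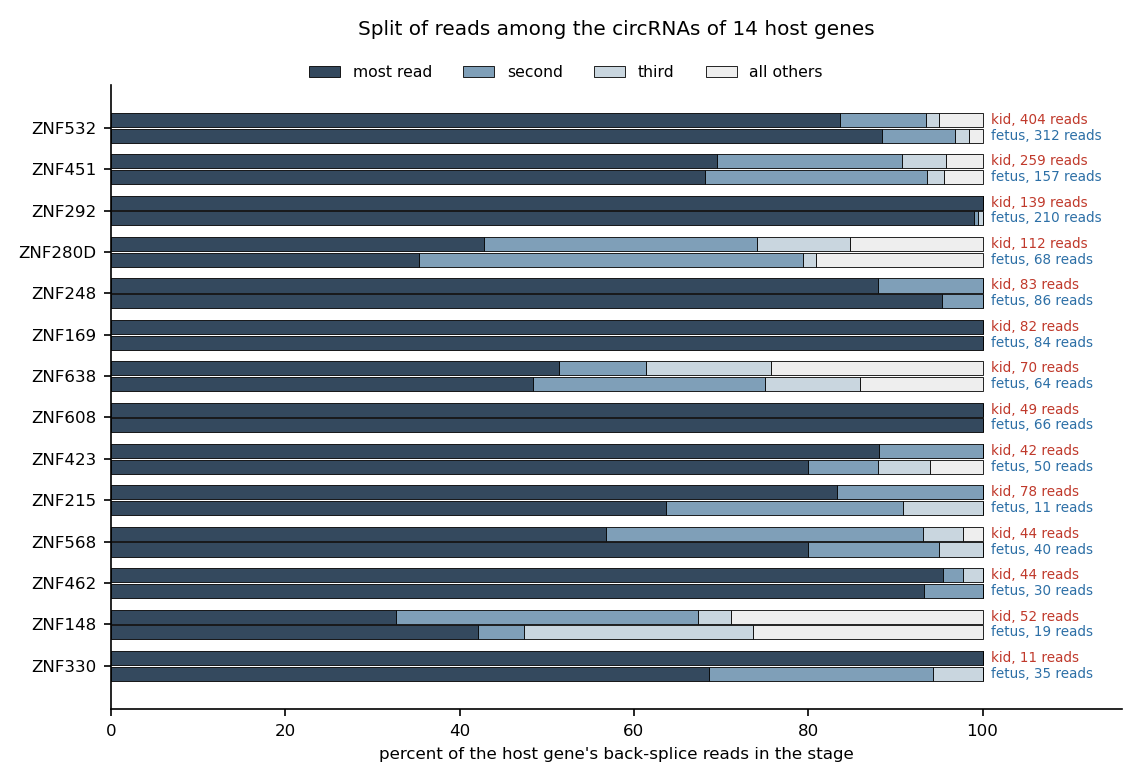
For the 14 tested host genes with the most reads, bars give the percent of the gene's back-splice reads that came from its most read circRNA, from the next ones in order and from all others, with the kid bar above the fetus bar and the number of reads at the right. ZNF292, ZNF169 and ZNF608 lie at or near 100% in 1 circRNA, while ZNF280D, ZNF638 and ZNF148 are spread over several.

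In structure, circles of many exons were rarer among ZNF and ZBTB circRNAs than among those of other host genes, while the median was 3 exons in both. Circles of 5 or more exons made up 14.9% of their exonic circRNAs and held 7.28% of the reads, against 32.6% and 20.7% for all other host genes. Circles of 2 to 4 exons made up 75.3%, against 62.9%. The 2 families differed in size. ZBTB circles were of 1 exon in 27.3% of 22 exonic circRNAs with a median length of 960.5 bases, against 7.56% of 172 and 410.0 bases for ZNF and 4.55% of 20628 and 452.0 bases for all other host genes. No circle of either family with numbered exons began at exon 1, which was also rare elsewhere (26 of 18543). Exon 2 was the first exon in 65 of 181, or 35.9%, against 22.9% of the others, but by reads the order was the other way, with 25.8% against 34.2%. Intronic circRNAs made up 8.06% of the 211, against 10.7% of the others. These shares are descriptions, since circRNAs of 1 gene are not independent.

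**Figure D5:**
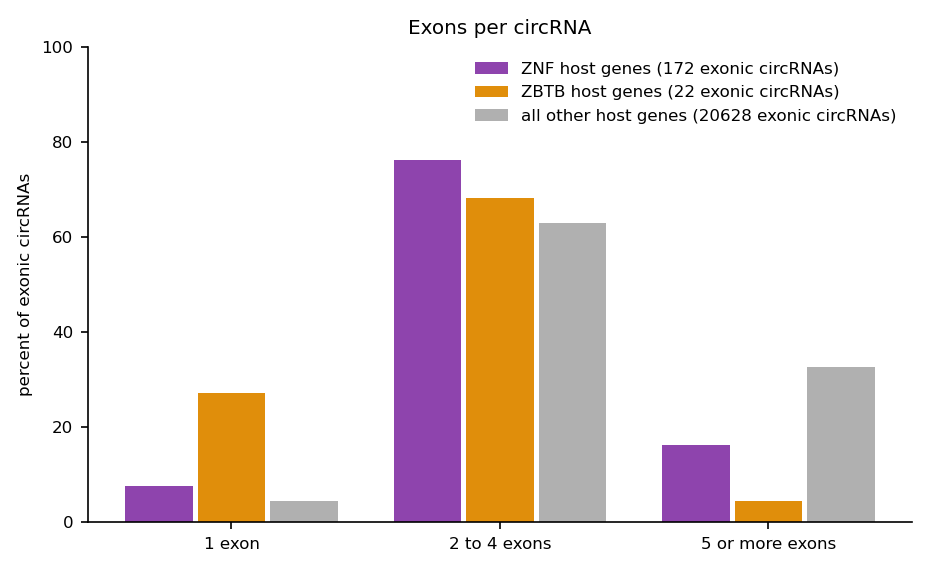
Bars give the percent of exonic circRNAs made of 1 exon, 2 to 4 exons and 5 or more exons, for ZNF host genes, ZBTB host genes and all other host genes. The class of 5 or more exons holds 16.3% of ZNF, 4.55% of ZBTB and 32.6% of other circRNAs, and the class of 1 exon holds 27.3% of ZBTB circRNAs.

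One exact length recurred among the 2-exon circles of ZNF genes. Of 60 such circRNAs from 41 genes, 8 had exactly 223 bases, each from a different gene, and the next most frequent length occurred in 2. Among 4841 circles of 2 exons from all other host genes, 19 or 0.392% had 223 bases, beside 13.3% for ZNF, and the most frequent length there occurred in 34 or 0.702%. The 8 genes were ZNF569, ZNF12, ZNF248, ZNF583, ZNF354C, ZNF354A, ZNF25 and ZNF568, all genes with a KRAB domain, and 2 of the 19 others, HKR1 and ZFP90, also encode KRAB zinc finger proteins. As background, the A and B boxes of the KRAB domain are encoded by neighbouring exons of their own. Whether these circles hold those exons was not tested, since no sequence was used. Exon numbers were 3 to 4 in 5 of them, 4 to 5 in ZNF569, 2 to 3 in ZNF25 and 6 to 7 in ZNF568. Together they had 87 reads, at most 21 in 1 gene, so the stages cannot be compared in most of them. This length was chosen after the values were seen. Copies of such genes with near-identical exons can share reads.

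Chromosome 18 held 11 of the genes and chromosome 7 held 9. Chromosome 24 held 6, which had the most reads (821) because of ZNF532. On chromosome 18, 5 of the 11 could be tested, and ZNF536 was the one called.

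Partners of these proteins were looked at in lists. Of 25 corepressor and heterochromatin genes that work with KRAB proteins, 14 gave circRNAs, 4 could be tested and 1, MORC3, rose, beside 11.9% of all host genes tested. MORC3, a chromatin ATPase of nuclear bodies, was at 3927.8 ± 268.6 CPM in kid and 1796.6 ± 272.7 CPM in fetus (SD, n = 3 each), with a log2 fold change of 1.12 ± 0.20 (SE, adjusted p = 0.000382; 0.93 and 0.102 with fetus 3 alone). PPHLN1, which encodes periphilin of the HUSH silencing complex, had a log2 fold change of 0.06 ± 0.41 (SE, adjusted p = 0.942; -0.20 without TMM factors). Of 19 corepressor and cullin genes that work with BTB proteins, 16 gave circRNAs and 7 could be tested. None passed by edgeR or by DESeq2, and 1 had an unadjusted p under 0.05 by edgeR, with HDAC4 at 0.23 ± 0.40 (SE, adjusted p = 0.75; -0.02 without TMM factors) and HDAC9 at -1.16 ± 0.51 (SE, adjusted p = 0.117). The medians of log2 fold change were -0.38 and -0.60, beside 0.05 for all host genes tested.

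Of 126 other C2H2 zinc finger genes, 42 gave circRNAs and 8 could be tested, with a median log2 fold change of -0.44. Of these 1 rose and 2 fell, beside 11.9% and 7.41% of all host genes tested. BNC2, a zinc finger protein of mesenchymal cells, rose with 28, 31 and 27 reads in kid 1, 2 and 3, against 2, 5 and 5 in fetus 1, 2 and 3 (log2 fold change 2.54 ± 0.52 SE, adjusted p = 0.0015; 0.0681 with fetus 3 alone). GLIS3 fell with 7 reads in kid and 29 in fetus (-2.33 ± 0.68 SE, adjusted p = 0.0194). It passed the read filter through fetus alone, with 3, 1 and 3 reads in kid 1, 2 and 3, against 7, 7 and 15 in fetus 1, 2 and 3. The GLIS3 call was lost without fetus 3 (adjusted p = 0.0909), by DESeq2 (0.0618), with no read filter (0.0829) and with fetus 3 alone (0.103). GLI3, a transcription factor of hedgehog signalling, fell with 14 reads in kid and 39 in fetus (-1.87 ± 0.64 SE, adjusted p = 0.0468). The GLI3 call held in 1 of 6 fits that left out a library, and with fetus 3 alone its log2 fold change was -0.44 (adjusted p = 0.865). ZEB1, with the most reads of the list, had a log2 fold change of 0.10 ± 0.17 (SE, adjusted p = 0.734), which was -0.17 without TMM factors. RLF was at -0.11 ± 0.33 (SE, adjusted p = 0.856).

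The authors' deposited table marks 7 of the 239 entries of these genes as significant, 2.93%, beside 3.26% of all 25500 entries. All marked entries had p of at most 0.05 and an absolute log2 fold change of at least 1.01, and q of marked entries reached 0.6. The 17 entries with p of up to 0.05 that were not marked had absolute log2 fold changes of at most 0.98. The log2 fold change of the authors' deposited table is of fetus over kid, so a negative value means higher in kid. In the authors' deposited table an entry of the main ZNF215 circRNA had -4.31 with q = 0.000785. That entry holds 65 kid reads and 3 fetus reads, and the other 4 fetus reads stand in an entry 1 base apart that was not marked. In the authors' deposited table the ZBTB20 circRNA of exon 5 had -3.97 with q = 0.0701. The authors' deposited table also marked 3 entries of ZBTB16 and 1 each of ZNF407 and ZNF536, with no finite fold since 1 stage was at 0. No entry of ZNF292 or ZNF330 was marked there. In the authors' deposited table the main ZNF292 circRNA had p = 0.0299 and a log2 fold change of 0.97, which is higher in fetus.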

How the data were processed

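The samples were grouped by their titles. Per the labels' protocols, ribosomal RNA was removed, and the rest was treated with RNase R and turned into dUTP libraries, which keep the strand, for paired sequencing with 150 bases per read. Tools named in the submitters' processing notes are TopHat, cutadapt and FastQC. No source used here gives the circRNA caller, genome build or annotation. The authors' files hold deposited counts of back-splice reads per circRNA entry, with position, strand, class, exons, length and host gene. Per the file headers, the deposited tables also hold SRPBM, a signal normalized by the authors and not used for tests, raw and valid read counts, and percent values of reads kept. Another deposited table holds the authors' own comparison, a log2 value of fetus over kid beside a p-value and a q-value from a test that no source used here names. The count tables differ at 38 values, 0 of them of ZNF or ZBTB genes.

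Host genes given as a number (4563 entries) were all matched in the RefSeq gene table. Those inside the span of a ZNF or ZBTB gene were added to it. The others kept apart, 22 entries of 18 genes with ZNF or ZBTB names (222 reads), fall outside the rule. The test of counts was that of edgeR 4.0.16 in R 4.3.3 (robust glmQLFit, glmQLFTest, TMM, total back-splice reads as library size, Benjamini-Hochberg over all features) for features that reached 5 reads in 3 or more libraries. SE was taken as |log2 fold change| over the root of F. The biological coefficient of variation was 0.275 for host genes and 0.318 for circRNAs. A bound uses a floor of 3 reads over the stage at 0. Ratios with 1 to 3 reads in a stage have exact 95% intervals. PCR copies are no independent molecules, so these intervals and floors cover counting error at most. A bound takes the reads of the other stage as exact, so it does not cover their counting error. Detection was averaged over 20 seeded draws. Alternatives were DESeq2 1.42.0, no TMM factors, valid reads as library size, no read filter, fetus 3 alone, other host naming, exonic circRNAs only, each library left out and a replicate block. The code was tested on simulated data.

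Named are the called genes, the 12 with the highest mean CPM, the 3 next by p and the tested ZBTB genes. In each partner list, called genes and the 2 with the most reads are named. ZBTB20, ZBTB24, ZBTB40, ZBTB44, ZBTB46, ZNF354C and the genes with a circle of 223 bases were chosen after their values were seen. The members, lists and rules were chosen with earlier results of these data known. Some nerve and Schwann cell markers are not reported here. Zinc finger patterns were not counted, since protein and circRNA sequences were not used here.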

Additional observations from a re-analysis of the deposited data

How the results depend on the processing

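The 42 named genes and circRNAs were set against alternative fits in 626 comparisons, each of 1 gene or circRNA in 1 fit. In 561 the direction and the side of the threshold were kept, in 42 a call was lost, in 1 (ZNF407 without kid 1) a call was gained and in 22 the sign turned. Host genes called numbered 339, of which 209 were higher and 130 lower in kid. Without TMM factors the split was 134 higher and 205 lower. With valid reads as library size 199 were called and with fetus 3 alone 86, and 221 to 284 when 1 library was left out. ZNF and ZBTB genes called numbered 5, but 3 with valid reads, 2 with fetus 3 alone, 3 with host names exactly as deposited and 3 to 5 when 1 library was left out. The circRNAs called numbered 297, but 24 with fetus 3 alone and 187 to 252 when 1 library was left out, and those of ZNF and ZBTB genes 3, but 0 with fetus 3 alone (2 at an unadjusted p under 0.05 by edgeR) and 1 to 3 when 1 library was left out. Unequal change was called for 30 host genes and for 9 to 26 when 1 library was left out. The summed ratio of kid over fetus was 0.77, and 0.94 when scaled to valid reads. The ratio of genes detected was 0.879, and 0.979 with all reads.

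Signs that turned belonged to genes that were not called. Without TMM factors the log2 fold change was -0.12 for ZNF462, -0.09 for its main circRNA, -0.02 for HDAC4, -0.20 for PPHLN1 and -0.17 for ZEB1. With fetus 3 alone it was 0.24 for ZNF532, 0.09 for its main circRNA and -0.02 for ZEB1, and with names as deposited -0.51 for PPHLN1. Leaving out 1 library gave ranges of -0.30 to 1.45 for ZBTB25, -0.08 to 0.57 for ZNF462, -0.26 to 0.10 for ZNF532, -0.40 to 0.12 for the main circRNA of ZNF638, -0.03 to 0.44 for that of ZNF462, -0.21 to 0.54 for HDAC4, -0.09 to 0.26 for PPHLN1, -0.27 to 0.02 for RLF and -0.07 to 0.17 for ZEB1. The cause was not tested.

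The labels state no pairing of the libraries. Correlations of deviations between libraries with the same replicate number were 0.0124, 0.0288 and -0.0421, beside -0.0581 to 0.0463 for the other combinations. With 3 libraries per stage such values cannot show that no pairing exists. With a replicate block 313 host genes and 4 of the 5 ZNF and ZBTB genes were called, ZNF330 being lost (adjusted p = 0.0546), and 2 of the 3 circRNAs, that of ZNF536 being lost (adjusted p = 0.0532). DESeq2 and the fit with no read filter also lost ZNF330 (adjusted p = 0.0696 and 0.0926). Leave-one-out fits kept the features tested with 6 libraries, a choice made after the data were seen. Depth is a further limit, since 58 of the 81 genes did not pass the read filter.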

Other observations

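Entries that the choice by name and position did not reach belonged to 18 genes with ZNF or ZBTB names, 6 of which are not among the 81. The largest was ZNF644, a zinc finger gene linked to myopia in human. Its 2 entries had 9, 9 and 17 reads in kid 1, 2 and 3, against 0, 0 and 0 in fetus 1, 2 and 3. When host genes were named by the RefSeq gene table, ZNF644 was at least 9.07-fold higher in kid with 3 reads over all fetus libraries as the floor (edgeR's quasi-likelihood test, adjusted p = 0.00169). It passed the read filter through kid alone. A further entry of ZBTB8A had 16 reads in kid and 30 in fetus. With all ZBTB8A entries joined under the RefSeq name, the same test gave a log2 fold change of -1.19 ± 0.58 (SE, adjusted p = 0.161). The entries of ZNF169 outside the choice had 35 reads in kid and 27 in fetus. These genes were picked after their values were seen.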
